A study of Mus musculus with 36 samples.

Results

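The genes described here encode the amyloid precursor protein, its relatives and proteases or protease subunits that cut it: App, Aplp1, Aplp2, Bace1, Bace2, Psen2, Ncstn, Aph1a and Adam10. They were chosen by name, as the rows of an RNA count table whose gene ID carries one of these symbols, and are 9 of the 37991 genes in that table. RNA was sequenced from the hippocampus of CKp25 mice and of control littermates, labelled CK, collected 2 or 6 weeks after p25 was induced. The animals were 3-month-old females, and the CKp25 mice carried both transgenes of the CK-p25 line. Each of the 4 groups, CKp25 at 2 weeks, CK at 2 weeks, CKp25 at 6 weeks and CK at 6 weeks, had 3 libraries, named below by group and number as in the labels. The CK-p25 line is known to express p25, a cleaved and overactive partner of Cdk5, in forebrain excitatory neurons under a CaMKII promoter, and to lose neurons after induction. The sources used here do not state which transgene the control littermates carry. Nothing in the labels ties each library to its own animal, and the p-values below therefore rest on a spread that may be technical. Time since induction and anything else shared by the libraries of 1 time cannot be told apart.

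As background, the amyloid precursor protein and its relatives are membrane proteins that are first shed by an ectodomain protease and then cut within the membrane. Shedding by beta-secretase followed by gamma-secretase releases amyloid-beta peptides, the main constituent of the plaques of Alzheimer's disease, whereas alpha-secretase cuts inside the amyloid-beta sequence. Gamma-secretase is a complex of a presenilin, nicastrin, an APH1 protein and PEN-2, and it also cuts Notch receptors and many other shed membrane proteins.

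The libraries held 5029996 to 6450140 gene counts each. The members were counted at very different depths, from 3257 to 5157 reads for App down to 8 to 30 reads for Bace2 in a library, so values for Bace2 are the least precise. At 2 weeks CKp25_2wk_4518 and CK_2wk_4520 stood apart: their shares of multiply aligned reads were 6.81% and 7.15%, and the other 4 libraries had 12.2% to 14.3%. Without both, 1 member was called at 2 weeks and 4 over both times, against 1 and 5 with them. At 6 weeks this share was 11.5% to 13.9% in CKp25 libraries and 6.86% to 9.52% in CK libraries. Genotype and this share therefore cannot be told apart within that time. Levels are given as CPM, a count relative to the library size scaled by edgeR's TMM normalisation, and are not corrected for gene length, so they are compared between groups and not between genes. All hippocampal cell type markers checked were detected. The 10 neuronal markers summed to 4320 to 4722 CPM in CKp25 and 5621 to 5776 CPM in CK at 2 weeks, and to 3673 to 4507 CPM in CKp25 and 5447 to 5952 CPM in CK at 6 weeks. All 8 microglial markers rose at both times, with summed levels of 663 to 893 CPM in CKp25 and 182 to 203 CPM in CK at 2 weeks, and of 828 to 1119 CPM in CKp25 and 174 to 195 CPM in CK at 6 weeks. In bulk tissue, fewer cells of a type and less RNA per cell cannot be told apart, and the part of these marker shifts in the results below was not tested. Choroid plexus markers varied from library to library, with sums of 24.7 to 1183 CPM in CKp25 and 18.7 to 984 CPM in CK at 2 weeks, and of 16.4 to 2035 CPM in CKp25 and 38.2 to 2461 CPM in CK at 6 weeks.

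For the members that changed in at least 1 comparison of CKp25 with CK and had an entry in the supplied RefSeq promoter table (build GRCm38.p6), the 250 bases before the annotated start are printed below, 5′ to 3′ on the gene's strand. The entries lie at chr7:30445583-30445832 on the minus strand for Aplp1, chr1:172082750-172082999 on the minus strand for Ncstn, chr3:95893671-95893920 on the plus strand for Aph1a and chr9:70678732-70678981 on the plus strand for Adam10. They are shown so that the promoters of the gene that fell and the genes that rose can be read side by side. Capitals mark GC boxes, the letters GGGCGG on either strand.
Aplp1: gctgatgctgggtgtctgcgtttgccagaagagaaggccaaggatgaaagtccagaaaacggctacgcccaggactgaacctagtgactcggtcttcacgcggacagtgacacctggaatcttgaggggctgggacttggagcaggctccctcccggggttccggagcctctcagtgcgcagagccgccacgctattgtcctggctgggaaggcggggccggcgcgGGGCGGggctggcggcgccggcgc
Ncstn: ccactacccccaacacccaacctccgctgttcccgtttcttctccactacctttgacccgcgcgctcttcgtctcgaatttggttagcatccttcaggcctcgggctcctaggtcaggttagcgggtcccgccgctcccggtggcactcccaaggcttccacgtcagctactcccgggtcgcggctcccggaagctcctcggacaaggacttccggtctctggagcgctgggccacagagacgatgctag
Aph1a: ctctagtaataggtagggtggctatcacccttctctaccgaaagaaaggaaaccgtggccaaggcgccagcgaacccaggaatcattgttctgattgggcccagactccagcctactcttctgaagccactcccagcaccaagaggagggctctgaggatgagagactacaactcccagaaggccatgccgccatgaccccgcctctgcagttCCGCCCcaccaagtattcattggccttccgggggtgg
Adam10: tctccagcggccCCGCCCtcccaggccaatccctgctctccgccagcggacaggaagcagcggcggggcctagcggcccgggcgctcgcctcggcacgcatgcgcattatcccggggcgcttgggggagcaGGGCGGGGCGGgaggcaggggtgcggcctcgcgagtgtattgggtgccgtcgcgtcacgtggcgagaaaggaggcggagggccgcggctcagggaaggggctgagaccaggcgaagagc
Of the 9 members, 7 had an entry in this table, and Bace1 and Bace2 are named only. The GC box stood once in the windows of Aplp1, Aph1a and App, 3 times in those of Adam10 and Aplp2, 2 times at the first start site of Psen2, and neither in that of Ncstn nor at the second start site of Psen2. It was present in 32.7% of all 32851 promoter windows of this length. TATAAA, present in 12.4% of windows, and the cyclic AMP response element TGACGTCA, in 1.55%, were found in no window of a member. The E-box letters CANNTG, searched on both strands like the others and held by 66.2% of windows, occurred 2 times before App, once before Aplp1 and Adam10, and once and 3 times at the first and the second start site of Psen2. These matches are descriptions of letters and say nothing of binding. The windows of the 4 genes printed were 57.2% to 74.0% G and C, against a median of 52.4% over all promoters.

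Taken over both times, 5 of the 9 members differed between CKp25 and CK: Adam10, Ncstn and Bace2 rose and Aplp1 and Bace1 fell. App, Aplp2 and Psen2 did not pass the test in any comparison, and Aph1a rose at 6 weeks. The test was edgeR's quasi-likelihood test with Benjamini-Hochberg adjustment over all 14457 genes tested, and a gene is called changed at an adjusted p under 0.05. At 2 weeks 1 of the 9 members was called (11.1%), where 19.6% of all genes tested were called. At 6 weeks 3 of 9 were called (33.3%), where the share over all genes was 33.3%. In the fit over both times, 5 of 9 were called (55.6%), against 37.5% of all genes. In that fit 3 members rose, where 19.5% of all genes did, and 2 fell, where 18.1% did. With so few genes these shares describe the members and do not set them apart from other genes. The levels of 5 members did not overlap between CKp25 and CK libraries at 2 weeks, and those of 5 members did not at 6 weeks (55.6% each), where the same held for 36.2% and 45.2% of all genes. The median log2 fold change of the members was -0.07 at 2 weeks and 0.09 at 6 weeks, beside -0.01 and 0.00 over all genes tested.

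**Figure D1:**
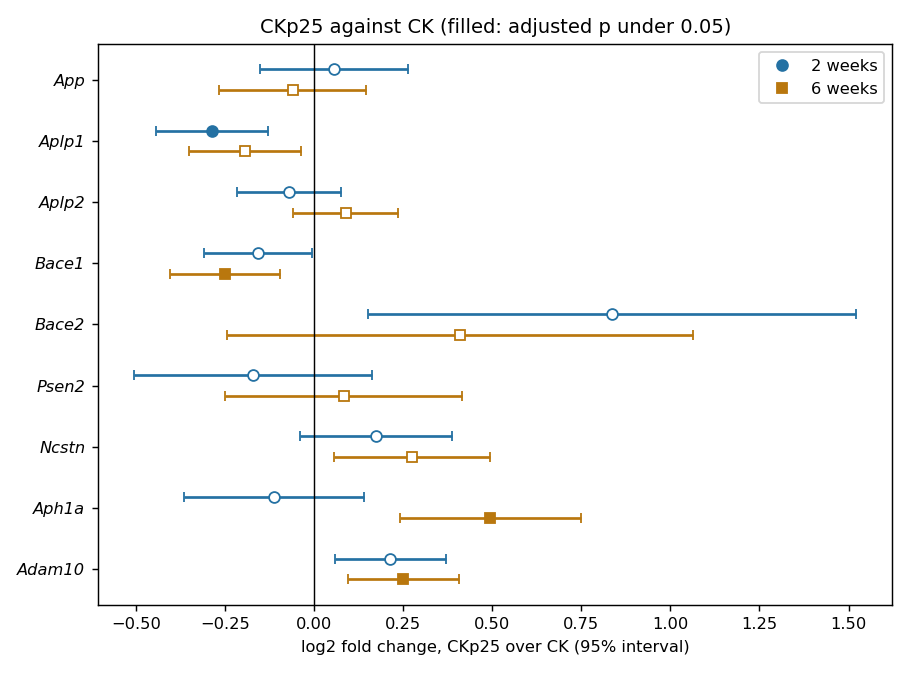
Log2 fold change of CKp25 over CK (horizontal axis) for each of the 9 genes (rows) at 2 weeks (circles, upper) and 6 weeks (squares, lower), with 95% intervals from the fit over 12 libraries; filled symbols passed an adjusted p of 0.05. Aplp1 and Bace1 lie left of 0 and Ncstn, Bace2 and Adam10 right of 0 at both times, while Aph1a is at -0.11 at 2 weeks and 0.50 at 6 weeks.

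App, the precursor of amyloid-beta, stayed close to its CK level in all but 1 library. At 2 weeks its levels were 612, 638 and 843 CPM in CKp25 libraries, against 666, 666 and 680.3 CPM in CK libraries. The value of 843 CPM belongs to CKp25_2wk_4894, and the other CKp25 libraries were below all 3 CK libraries. At 6 weeks App had 670.1, 652 and 640.3 CPM in CKp25 libraries, against 715, 666 and 665 CPM in CK libraries, and the groups overlapped. The log2 fold change of App was 0.06 at 2 weeks (95% interval -0.15 to 0.26, adjusted p = 0.749) and -0.06 at 6 weeks (-0.27 to 0.15, adjusted p = 0.689). Without CKp25_2wk_4894 the 2-week value was -0.09 (adjusted p = 0.508), and over 22 alternatives the adjusted p ran from 0.345 to 0.844. Over both times the estimated change was -0.125%, with a 95% interval from -10.0% to 10.9%.

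Aplp1, a relative of App known to be expressed mainly in neurons, fell in CKp25 hippocampus. At 2 weeks it had 468, 524 and 505 CPM in CKp25 libraries and 574, 619 and 633 CPM in CK libraries. At 6 weeks the levels were 518, 544 and 548 CPM in CKp25 and 643, 587 and 612 CPM in CK. Every CKp25 library was below every CK library of its time. The log2 fold change was -0.29 ± 0.07 (SE) at 2 weeks (adjusted p = 0.0109) and -0.24 ± 0.05 over both times (adjusted p = 0.0021), a fall by 15.3%. At 6 weeks alone it was -0.19 ± 0.07, with an adjusted p of 0.0537 that missed the threshold. DESeq2 (0.0172), limma-voom (0.0323) and 4 more of the 22 alternatives called the 6-week value, over which the adjusted p ran from 0.0103 to 0.170. The 2-week call was lost without CK_2wk_4893 (adjusted p = 0.0537), and in the other alternatives it was kept, with adjusted p from 0.000462. Of the 10 neuronal markers, 8 fell at 2 weeks and 9 at 6 weeks, with median log2 fold changes of -0.40 and -0.47, and their part in the fall of Aplp1 was not tested.

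Aplp2, the other relative and one expressed in many tissues, gave no call between genotypes. It had 297, 332 and 318 CPM in CKp25 and 335, 343 and 316 CPM in CK at 2 weeks, which overlap. At 6 weeks all 3 CKp25 libraries, at 374, 361 and 360.1 CPM, were above the CK libraries at 342, 334 and 353 CPM. The log2 fold change at 6 weeks was 0.09 (95% interval -0.06 to 0.24, adjusted p = 0.358), and at 2 weeks -0.07 (-0.22 to 0.08, adjusted p = 0.541). The difference between the times was 0.16 (-0.05 to 0.37, adjusted p = 0.494).

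**Figure D2:**
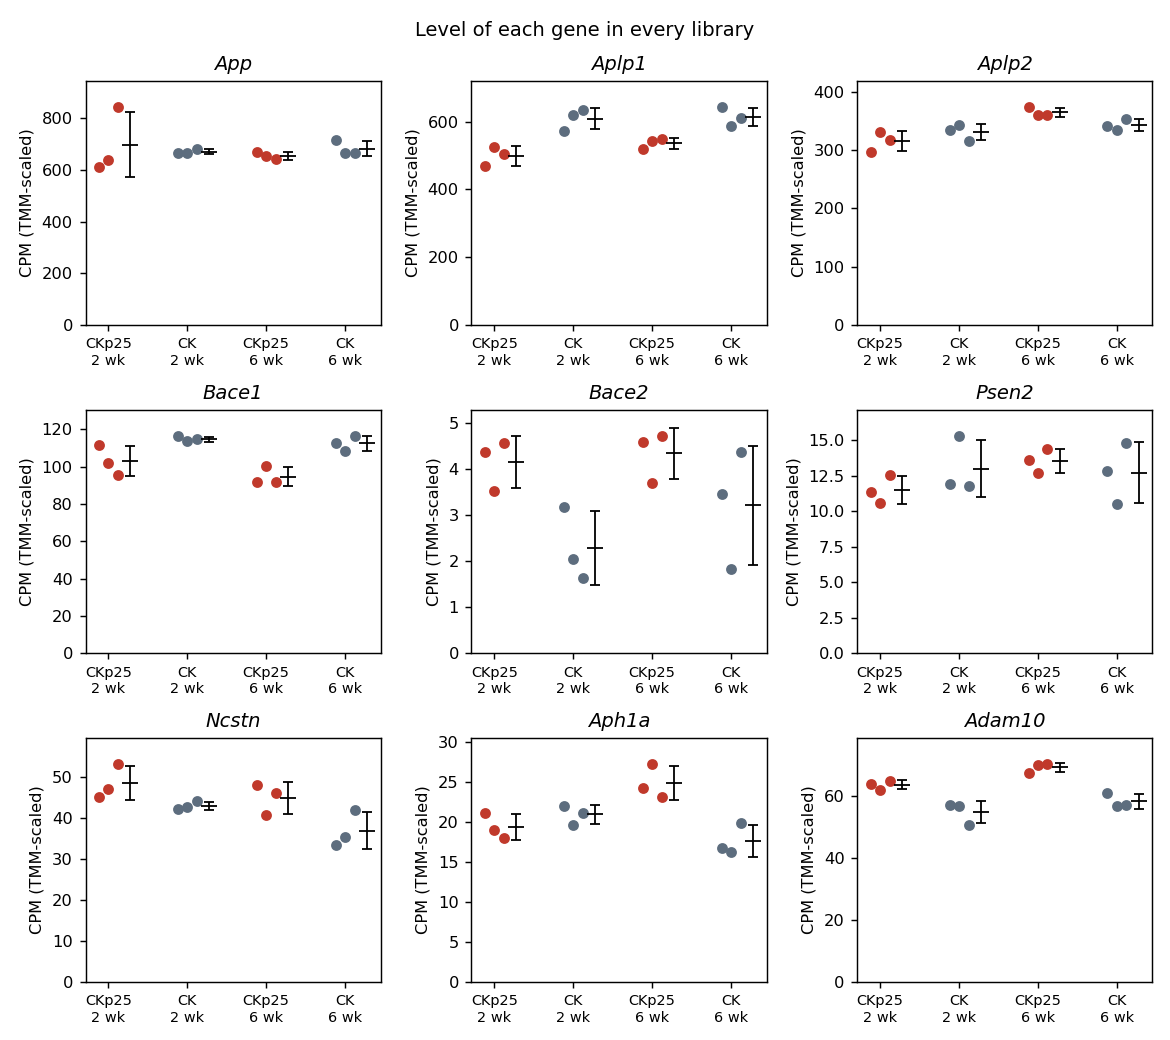
Level of each gene in every library, in CPM scaled by TMM factors (vertical axes start at 0), with CKp25 in red and CK in grey at 2 and 6 weeks; bars beside the points are the mean ± SD of 3 libraries. App is high in 1 CKp25 library at 843 CPM, Aplp1 and Bace1 are lower in all CKp25 libraries, and Adam10 is higher in all of them.

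Bace1, the main beta-secretase of neurons, fell modestly. At 2 weeks it had 111, 102 and 95.4 CPM in CKp25 libraries and 116, 114 and 115 CPM in CK libraries. At 6 weeks the values were 91.8, 100.3 and 91.8 CPM in CKp25 and 113, 108 and 117 CPM in CK. The groups did not overlap at either time. Its log2 fold change was -0.25 ± 0.07 (SE) at 6 weeks (adjusted p = 0.0135), -0.16 ± 0.07 at 2 weeks (adjusted p = 0.148) and -0.20 ± 0.05 over both times (adjusted p = 0.00554). Over 22 alternatives the 6-week adjusted p ran from 0.00592 to 0.130, and it was 0.0541 without CKp25_6wk_4008, 0.130 without CK_6wk_4009 and CKp25_6wk_4008, and 0.127 with the share of reads aligned to several places as a covariate, and that share was 11.5% to 13.9% in CKp25 and 6.86% to 9.52% in CK at 6 weeks.

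Bace2, a close homolog of Bace1 that is known mostly from tissues outside the brain, was counted in few reads and rose over both times. At 2 weeks it had 4.37, 3.52 and 4.58 CPM in CKp25 libraries, all above the 3.19, 2.05 and 1.63 CPM in CK libraries. At 6 weeks it had 4.60, 3.70 and 4.73 CPM in CKp25 and 3.46, 1.82 and 4.37 CPM in CK, and the groups overlapped. On the log2 scale the change was 0.61 over both times (95% interval 0.14 to 1.09, adjusted p = 0.0405), but 0.84 (adjusted p = 0.0821) and 0.41 (adjusted p = 0.342) at 2 and 6 weeks taken alone. The call over both times was lost with DESeq2 (adjusted p = 0.0613) and without any 1 of CKp25_2wk_4518, CKp25_2wk_4894, CK_2wk_4891, CK_2wk_4893, CKp25_6wk_3937, CKp25_6wk_4008 or CK_6wk_3938. Over all 21 alternatives the adjusted p ran from 0.0143 to 0.0964.

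Within each of the 4 groups, the library with the least Bace2 was also the one with the lowest choroid plexus markers, and in 3 of the 4 groups the whole order of libraries was the same. In CK at 6 weeks, for example, Bace2 was at 4.37, 3.46 and 1.82 CPM where the markers summed to 2461, 665 and 38.2 CPM. In the libraries with the lowest marker sums, Bace2 had 3.52 CPM at a sum of 24.7 CPM in CKp25_2wk_4890 and 3.70 CPM at 16.4 CPM in CKp25_6wk_3940, against 1.63 to 2.05 CPM in the 3 CK libraries with sums of 18.7 to 38.2 CPM. These values rest on 19 and 23 reads of Bace2 in the 2 CKp25 libraries and 8 to 10 reads in the 3 CK libraries. With the markers as a covariate in edgeR's fit, the log2 fold change over both times was 0.56 (adjusted p = 0.0249). The part of choroid plexus tissue in the Bace2 values was not tested.

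**Figure D3:**
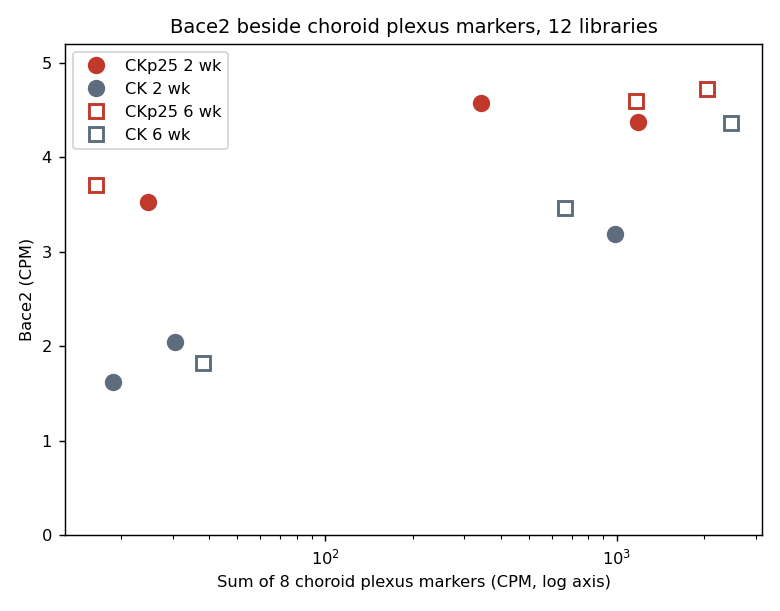
Bace2 level (vertical axis, CPM) against the summed level of 8 choroid plexus markers (horizontal log axis, CPM) in the 12 libraries, CKp25 in red and CK in grey, filled circles for 2 weeks and open squares for 6 weeks. The 3 CK libraries with marker sums of 18.7 to 38.2 CPM have 1.63 to 2.05 CPM of Bace2, and the 2 CKp25 libraries with the lowest sums have 3.52 and 3.70 CPM.

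Among the gamma-secretase subunits, Ncstn encodes nicastrin, the large glycoprotein subunit of the complex, and rose over both times. It had 45.2, 46.9 and 53.1 CPM in CKp25 and 42.1, 42.5 and 44.1 CPM in CK at 2 weeks, with no overlap. At 6 weeks it had 48.0, 40.6 and 46.0 CPM in CKp25 and 33.4, 35.4 and 41.9 CPM in CK, where the lowest CKp25 library lay below the highest CK library. Its log2 fold change was 0.22 ± 0.07 (SE) over both times (adjusted p = 0.0215), 0.17 ± 0.10 at 2 weeks (adjusted p = 0.258) and 0.27 ± 0.10 at 6 weeks (adjusted p = 0.0506, and 0.0147 to 0.203 over 22 alternatives, of which 5 made the call). The call over both times was lost without any 1 of CKp25_2wk_4894, CKp25_6wk_3937, CK_6wk_3936 or CK_6wk_3938, with adjusted p between 0.0509 and 0.0617, and with the share of reads aligned to several places as a covariate (0.0515).

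Aph1a encodes an APH1 subunit, the scaffold of the complex, and rose at 6 weeks. At that time all CKp25 libraries, at 24.2, 27.2 and 23.1 CPM, were above the CK libraries at 16.7, 16.2 and 19.9 CPM. At 2 weeks the levels were 21.1, 18.9 and 18.0 CPM in CKp25 and 22.0, 19.6 and 21.1 CPM in CK, and the groups overlapped. The log2 fold change was 0.50 ± 0.12 (SE) at 6 weeks (adjusted p = 0.00431), a rise by 40.9%, and it passed under all 22 alternatives tried, with adjusted p up to 0.0268. At 2 weeks it was -0.11 (95% interval -0.36 to 0.14, adjusted p = 0.580). The difference between the 2 effects was 0.61 ± 0.17 with an unadjusted p of 0.0024 in the fit across all genes and an adjusted p of 0.107, so it did not pass.

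No member was called for a difference of the CKp25 effect between the times by edgeR's quasi-likelihood test, where 0.553% of all genes were. Aph1a was the 1 member with an unadjusted p under 0.05 there, and DESeq2 and limma-voom called 0. At 6 weeks 7 of 8 oligodendrocyte, all 8 endothelial and all 8 astrocyte markers rose, with median log2 fold changes of 0.55, 0.75 and 0.77. At 2 weeks 1 oligodendrocyte, 0 endothelial and 5 astrocyte markers rose, and the medians were 0.06, 0.21 and 0.49. The CKp25 effect differed between the times for 2 of 8 astrocyte markers, and for 0 oligodendrocyte and 0 endothelial markers. Whether these cells contribute to the Aph1a values was not tested. Car14, a carbonic anhydrase gene, overlaps Aph1a in the RefSeq annotation of GRCm38.p6 and also rose at 6 weeks, averaging 16.3 ± 5.46 CPM in CKp25 and 7.90 ± 2.17 CPM in CK (SD, n = 3 libraries each; adjusted p = 0.0130). Whether the counting used strand is not given, so reads of 1 gene may have been counted for the gene that overlaps it, which was not tested. Reads set aside as ambiguous were 0.137% to 0.165% of all reads in a library. Copa, which overlaps Ncstn, and Rnf214, which overlaps Bace1, had log2 fold changes of -0.03 (adjusted p = 0.752) and -0.13 (adjusted p = 0.239) at 6 weeks.

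Psen2 encodes a presenilin, the catalytic subunit, and gave no call. Its levels were 11.4, 10.6 and 12.6 CPM in CKp25 and 11.9, 15.3 and 11.8 CPM in CK at 2 weeks. At 6 weeks they were 13.6, 12.7 and 14.4 CPM in CKp25 and 12.8, 10.5 and 14.8 CPM in CK. The groups overlapped at both times. With a change over both times of -0.04 on the log2 scale and a 95% interval of -0.28 to 0.20 (adjusted p = 0.804), its precision was lower than that of App or Aplp2. As with Bace2, the library with the least Psen2 was the one with the lowest choroid plexus markers in all 4 groups.

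Of the other gamma-secretase genes, 3 of 3 were tested. Aph1b, a second APH1 subunit, fell at 2 weeks (log2 fold change -0.35 ± 0.10, adjusted p = 0.0229) and had -0.17 at 6 weeks (adjusted p = 0.218). Aph1c, a rodent paralog of Aph1b, had -0.12 (adjusted p = 0.747) and 0.10 (adjusted p = 0.768) at 2 and 6 weeks. Reads that align to both paralogs would be counted for neither. Psenen, which encodes PEN-2, had -0.15 (adjusted p = 0.665) and 0.22 (adjusted p = 0.406). Aph1a at 6 weeks was the 1 APH1 gene of the 3 that rose, and no test of one APH1 gene against another was made.

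Adam10 encodes the main alpha-secretase of neurons and rose. At 2 weeks it had 64.0, 62.1 and 65.0 CPM in CKp25 libraries and 57.2, 56.7 and 50.8 CPM in CK libraries. At 6 weeks it had 67.6, 70.0 and 70.4 CPM in CKp25 and 61.0, 56.9 and 57.1 CPM in CK. Every CKp25 library was above every CK library of its time. Adam10 had a log2 fold change of 0.25 ± 0.07 (SE) at 6 weeks (adjusted p = 0.0142), 0.21 ± 0.07 at 2 weeks (adjusted p = 0.0501) and 0.23 ± 0.05 over both times (adjusted p = 0.00178), a rise by 17.5%. The 6-week call was lost in 4 of 22 alternatives, with DESeq2 (adjusted p = 0.0529), without a filter on low counts (0.0577), without CK_6wk_3938 (0.0541) and without CK_6wk_4009 and CKp25_6wk_4008 (0.0997). The 2-week value was called in 3 of 22 alternatives and not in the other 19, with adjusted p from 0.0377 to 0.2405. These 3 were RLE (0.0415) and upper-quartile scaling (0.0377) and leaving out CKp25_6wk_3937 (0.0499). Astrocyte markers rose beside it, 5 of 8 at 2 weeks and 8 of 8 at 6 weeks, and their part was not tested.

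No member was called between 6 and 2 weeks within a genotype. Within CKp25, 11.7% of all genes were called by edgeR's quasi-likelihood test, 2 members had an unadjusted p under 0.05 (Aplp2, log2 change 0.21, adjusted p = 0.0586, and Aph1a, 0.36, adjusted p = 0.0550), and DESeq2 called 1 member and limma-voom 2. Within CK, 0% of all genes and 0 members were called, 0 members had an unadjusted p under 0.05, and DESeq2 and limma-voom called 0 members. In CK the log2 difference between the times was 0.48 for Bace2, with a 95% interval of -0.25 to 1.20. It was -0.25 for Aph1a (-0.51 to 0.01) and -0.21 for Ncstn (-0.43 to 0.01), and the other members lay between -0.03 and 0.09. Within CKp25 the difference for Ncstn was -0.11 (-0.32 to 0.10). The 6-week effects of Aph1a and Ncstn are thus set against CK levels that were lower than at 2 weeks, though not called.

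Ratios of member pairs within a library, which need no scaling between libraries, were compared between CKp25 and CK with an exact two-sided permutation test, genotype labels being permuted within each time. The counts are those used above, so the ratios are another view of the same changes. For Adam10 over Bace1 the log2 ratio was -0.80, -0.72 and -0.55 in CKp25 and -1.02, -1.003 and -1.17 in CK at 2 weeks, and -0.44, -0.52 and -0.38 in CKp25 and -0.88, -0.93 and -1.03 in CK at 6 weeks. It was higher in 6 of 6 CKp25 libraries than in any CK library of the same time. The mean difference of 0.44, or 1.36-fold, had an exact p of 0.005, the smallest that the 400 permutations can give, and 0.015 after adjustment over the 6 ratios.

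The difference for Bace2 over Bace1 was 0.92, or 1.89-fold (exact p = 0.01, adjusted 0.02), with 6-week libraries of the groups overlapping. The ratio of Aplp1 to App was lower by 0.23 on the log2 scale in CKp25 (difference -0.23, exact p = 0.005, adjusted 0.015), with CKp25 below CK in 6 of 6 libraries. Its lowest value was -0.74 in CKp25_2wk_4894, the library with high App, and without any 1 library the difference stayed between -0.28 and -0.16. Psen2 over Ncstn had a difference of -0.26 (exact p = 0.015, adjusted 0.0225). It no longer passed without any 1 of CKp25_2wk_4890, CKp25_2wk_4894, CKp25_6wk_3937 or CK_6wk_3936, with adjusted exact p of 0.06 to 0.0675. For Aplp2 over App the difference was 0.02 (exact p = 0.885, adjusted 0.885). Without CKp25_2wk_4518 and CK_2wk_4520, the libraries that stood apart, the differences were 0.48 for Adam10 over Bace1, -0.27 for Aplp1 over App, 1.06 for Bace2 over Bace1 and -0.30 for Psen2 over Ncstn. Only 120 permutations are then possible, and both Adam10 over Bace1 and Aplp1 over App had the smallest exact p that these can give, 0.0167, which is 0.05 after adjustment. For both, missing the threshold there says nothing of stability. Bace2 over Bace1 (adjusted exact p = 0.0667) and Psen2 over Ncstn (0.075) did not pass there either.

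Aph1a over Ncstn had a difference of -0.04 over both times (exact p = 0.805, adjusted 0.885), the average of -0.29 at 2 weeks and 0.21 at 6 weeks. The CKp25 effect on this ratio was higher by 0.50 at 6 weeks than at 2 weeks, with an exact permutation p of 0.02 and 0.12 after adjustment over the 6 ratios. Permuting genotype within each time assumes no genotype effect at either time, so this p does not test the difference between the times alone. Within 1 time, 3 libraries against 3 cannot give an exact p under 0.1.

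**Figure D4:**
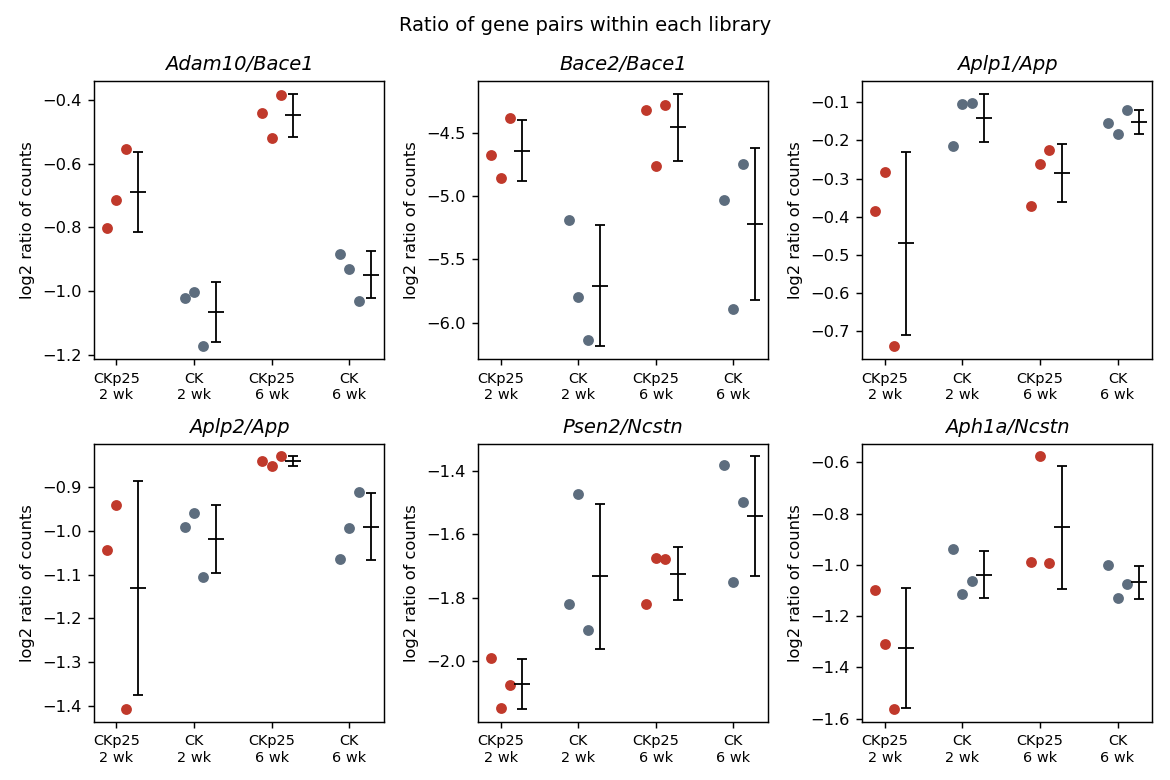
Log2 ratio of the counts of 2 genes within each library (vertical axes, not starting at 0) for 6 pairs, with CKp25 in red and CK in grey at 2 and 6 weeks; bars beside the points are the mean ± SD of 3 libraries. Adam10 over Bace1 is at -0.80 or higher in all CKp25 libraries and at -0.88 or lower in all CK libraries, and Aplp1 over App is lower in CKp25 than in CK at both times.

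Genes that act on or beside the members were followed as lists, without a test of any list. Over all genes tested, 11.6% rose and 7.99% fell at 2 weeks, and 18.1% rose and 15.2% fell at 6 weeks. Of 4 tested genes for other sheddases, 1 rose at 2 weeks and 2 at 6 weeks (medians 0.20 and 0.49). Adam17, a sheddase best known for releasing tumour necrosis factor and an inducible alpha-secretase, had log2 fold changes of 0.74 ± 0.15 at 2 weeks (adjusted p = 0.00228) and 0.91 ± 0.15 (SE) at 6 weeks (adjusted p = 0.000209). Rhbdd1, a rhomboid protease, had 0.15 (adjusted p = 0.663) and 0.79 (adjusted p = 0.00574). Adam9 had 0.25 (adjusted p = 0.108) and 0.20 (adjusted p = 0.158) at 2 and 6 weeks, and Adam19 had -0.17 (adjusted p = 0.363) and -0.16 (adjusted p = 0.322). Mep1b did not pass the filter on low counts.

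Adam10 is carried to the cell surface by tetraspanins of the TspanC8 group and is inhibited by some tissue inhibitors of metalloproteinases. Of 9 tested genes of this list, 2 rose and 2 fell at 2 weeks, and 5 rose and 2 fell at 6 weeks (medians 0.15 and 0.47). The tetraspanins moved in both directions. Tspan14 rose by 0.48 and 0.55 on the log2 scale at 2 and 6 weeks (adjusted p = 0.0253 and 0.00675), and Tspan15 rose by 0.89 at 6 weeks (adjusted p = 0.00122). Tspan5 fell by 0.31 and 0.29 (adjusted p = 0.00908 and 0.0103) and Tspan33 fell by 0.38 and 0.35 (adjusted p = 0.0270 and 0.0295). Timp3, which inhibits Adam10, rose by 0.96 at 6 weeks (adjusted p = 0.000356). Timp1, also an inhibitor of Adam10, had 4.96, 4.64 and 3.11 CPM in CKp25 libraries and no read in any CK library at 2 weeks, so it was at least 24.1-fold higher when 3 counts are allowed for the CK group (adjusted p = 5.04e-06). At 6 weeks it had 35 reads in CKp25 and 2 in CK, a ratio of 16.7 with an exact counting interval of 4.30 to 144, which covers counting error alone (adjusted p = 0.00035).

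Of 23 tested App adaptors and sorting genes, 1 rose and 5 fell at 2 weeks, and 2 rose and 8 fell at 6 weeks (medians -0.08 and -0.14). Among those that fell at 6 weeks were Gga2 (-0.44, adjusted p = 0.00499), a sorting adaptor of the trans-Golgi network, and Apba2 (-0.41, adjusted p = 0.000368), a neuronal adaptor that binds the App tail. Sort1, a sorting receptor (-0.35, adjusted p = 0.00367), and Rtn3, a reticulon that binds Bace1 (-0.34, adjusted p = 0.0019), also fell. At 2 weeks Apba2, Sort1 and Rtn3 had fallen too, by 0.31, 0.31 and 0.27 (adjusted p = 0.00578, 0.0152 and 0.0142). Itm2b, whose product binds App and limits its cleavage, rose by 0.27 at 2 weeks (adjusted p = 0.0272) and 0.50 at 6 weeks (adjusted p = 0.00019). Picalm, a clathrin assembly gene, rose by 0.18 at 6 weeks (adjusted p = 0.0417).

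Several enzymes known to degrade amyloid-beta rose. Of 14 tested, 6 rose at 2 weeks, and 8 rose and 1 fell at 6 weeks, with medians of 0.29 and 0.34. The cathepsin D gene Ctsd rose by 2.44 ± 0.17 at 2 weeks and 2.24 ± 0.17 (SE) at 6 weeks on the log2 scale (adjusted p = 1.41e-08 and 3.88e-08). Plau, urokinase, rose by 2.00 and 2.12 (adjusted p = 4.47e-05 and 1.27e-05), Mmp2 by 1.35 and 1.54 (adjusted p = 0.0116 and 0.00264), and the cathepsin B gene Ctsb by 1.02 and 1.18 (adjusted p = 4.24e-07 and 8.54e-08). Thop1, a cytosolic oligopeptidase, fell by 0.26 at 6 weeks (adjusted p = 0.0297). Microglial markers, whose median log2 fold changes were 1.98 and 2.15, rose at the same times, and their part in these values was not tested.

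Other substrates of the secretases changed in both directions. Of 25 tested, 2 rose and 7 fell at 2 weeks, and 6 rose and 9 fell at 6 weeks (medians -0.17 and -0.09). The Notch receptor genes were among those that rose at 6 weeks: Notch2 by 0.97 (adjusted p = 0.000154), Notch1 by 0.84 (adjusted p = 6.33e-06) and Notch3 by 0.74 (adjusted p = 0.00202). At 2 weeks Notch2 already averaged 101 CPM in CKp25 and 77.0 CPM in CK. Notch1 averaged 85.6 and 65.4 CPM at that time, and Notch3 26.4 and 17.5 CPM. Nrg1, a neuregulin processed by Bace1, had -0.53 at 2 weeks (adjusted p = 0.142) and rose by 0.83 at 6 weeks (adjusted p = 0.0121), and the difference of 1.36 between the times did not pass (adjusted p = 0.0722). Among the 9 that fell at 6 weeks were Epha4 by 0.75 (adjusted p = 7.54e-05), Sez6l by 0.60 (adjusted p = 8.64e-05), Scn2b by 0.53 (adjusted p = 0.000287) and Nrg3 by 0.49 (adjusted p = 0.000474). Mean levels of these genes were also lower in CKp25 at 2 weeks. Epha4 averaged 400 CPM in CKp25 and 525 CPM in CK, and Sez6l 198 and 229 CPM. Scn2b averaged 190 and 261 CPM, and Nrg3 57.9 and 74.1 CPM.

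**Figure D5:**
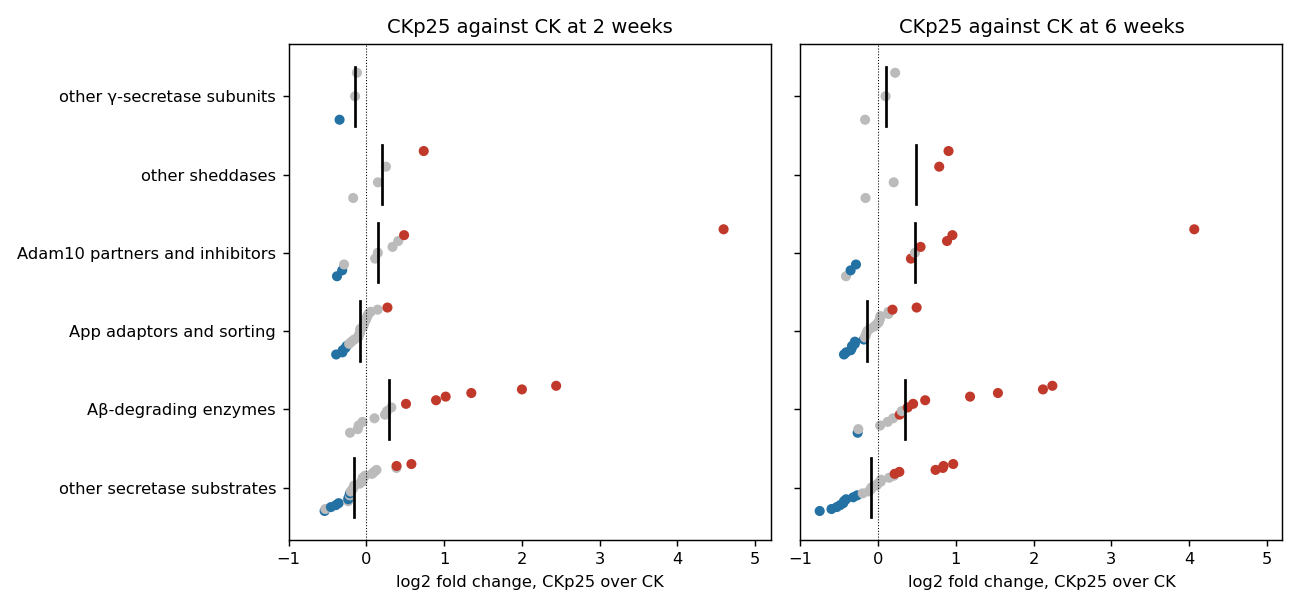
Log2 fold change of CKp25 over CK (horizontal axes) for every tested gene of 6 pathway lists (rows) at 2 weeks (left) and 6 weeks (right); red genes rose and blue genes fell at an adjusted p under 0.05, grey genes did not pass, and black lines are list medians. Timp1 is drawn at its lower bound at 2 weeks and at its count ratio at 6 weeks, and the 14 amyloid-beta-degrading enzymes have the medians of 0.29 and 0.34.

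For the members called at 6 weeks, the genes with the most similar pattern over the 12 libraries were sought among 7294 genes with a mean of at least 20 CPM. Likeness was the root mean square difference of log2(CPM + 0.5) after centring each gene on its mean. For Bace1 these were Chfr (0.04), Usp9x (0.05) and Nsd1 (0.05), beside a median of 0.17 over all genes searched. Aph1a was closest to Hbp1 (0.10), Gclm (0.11) and Stam2 (0.13), beside a median of 0.27. Adam10 was closest to 9530068E07Rik (0.05), Pcnt (0.06) and Nras (0.06), beside a median of 0.23.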

How the data were processed

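The authors deposited unnormalised counts of reads for each Ensembl gene in 12 libraries. The submitters' processing notes name Bowtie, Picard and HTSeq 0.6.1 and the builds NCBIM37 and mm9, and the labels' protocols name a stranded, ribosomal-RNA-depleted library preparation. Another 5 entries name no gene and entered neither depths nor tests. Of all reads, those outside features were 38.1% to 46.9%, those with several alignments 6.81% to 14.3%, unaligned reads 6.13% to 11.1%, ambiguous reads 0.137% to 0.165% and low-quality alignments 0%. Gene IDs were named with the supplied symbol table (86.6% of IDs matched). All 9 members matched 1 ID each and passed the filter on low counts. Of 142 list entries, 141 were matched, Apbb3 being the exception.

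The fits were made with edgeR 4.0.16 under R 4.3.3 (filterByExpr, TMM scaling, quasi-likelihood fit with 4 group means over 12 libraries, or genotype plus time), with Benjamini-Hochberg adjustment over 14457 genes. The 95% intervals use the residual (8) and median prior (8.73) degrees of freedom. Exact permutation tests were enumerated in Python 3.11.15 with numpy 2.4.6. Alternatives were RLE and upper-quartile scaling, no filter, DESeq2 1.42.0, limma-voom (limma 3.58.1), fits of 1 time alone, leaving out libraries, and covariates. The fit and the permutation test were tested on simulated data. Genes named were all members, every gene of lists of up to 5, otherwise up to 4 genes of the largest rise and 4 of the largest fall among those called at 6 weeks, and the 3 genes most like each member called at 6 weeks. The members and lists were chosen with earlier results of these data known. The 28 histone mark peak lists were not used here, because no gene annotation of mm9 was at hand. Protein sequences were not used here. Promoters are RefSeq sequences of GRCm38.p6, a later build than that of the counts, matched by symbol, and overlaps between genes come from the same annotation.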

Additional observations from a re-analysis of the deposited data

Results flagged for a closer look

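Erbb4, a receptor for neuregulins that is shed and then cut by gamma-secretase, was the 1 gene of the pathway lists with a CKp25 effect that differed between the times. It fell by 0.23 on the log2 scale at 2 weeks (adjusted p = 0.0219) and rose by 0.21 at 6 weeks (adjusted p = 0.0227, edgeR's quasi-likelihood test). The difference of 0.45 passed in the fit across all genes (adjusted p = 0.047), close to the threshold. Erbb4 was 1 of 25 tested secretase substrates, and 0.553% of all genes were called for this difference. Its value was not followed through the alternatives. With 1 library left out, the number of all genes called for this difference ran from 24 to 204.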

How the results depend on the processing

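Calls close to the threshold moved with the processing. At 2 weeks 2 members were called with RLE scaling and 2 with upper-quartile scaling, Adam10 joining Aplp1, and 0 to 2 when 1 library was left out. At 6 weeks 5 were called with the choroid plexus covariate, 2 to 4 without 1 library, and 2 without CK_6wk_4009 and CKp25_6wk_4008, where Bace1 and Adam10 were lost and Ncstn passed. Within CKp25, 6 against 2 weeks gave 1 member with DESeq2, 2 with limma-voom, 1 with the share of reads aligned to several places as a covariate, and 0 to 1 without 1 library. Over both times 3 to 5 members were called without 1 library. The number of all genes called moved as well. Without 1 library it ran from 1806 to 3056 at 2 weeks and from 3501 to 5054 at 6 weeks. For 6 against 2 weeks within CKp25 it ran from 839 to 2029, and over both times from 4836 to 5673. Totals over all genes for the other settings are not given here. The cause of these shifts was not tested.

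The sign turned only for values that had not been called. Over both times App was 0.0022 with RLE scaling and DESeq2, 0.018 with upper-quartile scaling, 0.013 without CK_2wk_4520 and CKp25_2wk_4518, 0.0077 without CK_6wk_4009 and CKp25_6wk_4008, and -0.081 to 0.025 without 1 library. Aplp2 was -0.0001 with no filter, -0.014 with the alignment covariate and -0.011 to 0.032 without 1 library. Without CK_2wk_4520 and CKp25_2wk_4518, the Adam10 difference between the times was -0.0038 and the change of Aplp1 between the times in CK -0.034. The alignment covariate gave -0.0081 for Psen2 at 6 weeks, 0.046 for its change between the times in CK, and -0.035 for the Aplp1 difference between the times. The change of Bace2 between the times in CKp25 was -0.016 without CK_6wk_4009 and CKp25_6wk_4008, -0.054 with the choroid plexus covariate and -0.048 to 0.14 without 1 library.

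With 1 library left out, App spanned -0.095 to 0.14 at 2 weeks, -0.22 to 0.025 for the difference between the times, -0.20 to 0.045 between the times in CKp25 and -0.011 to 0.043 in CK. Aplp1 spanned -0.028 to 0.045 between the times in CK. Psen2 spanned -0.037 to 0.21 at 6 weeks, -0.15 to 0.11 between the times in CK, and -0.11 to 0.027 over both times.

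Among the ratios, leaving out CK_2wk_4520 and CKp25_2wk_4518 gave 0.48 for Adam10 over Bace1 and -0.27 for Aplp1 over App (adjusted exact p = 0.05 each), 1.06 for Bace2 over Bace1 (0.0667) and -0.30 for Psen2 over Ncstn (0.075). Only 120 permutations remain there, with a smallest exact p of 0.0167, which Adam10 over Bace1 and Aplp1 over App reached. Without CK_6wk_4009 and CKp25_6wk_4008, Psen2 over Ncstn was -0.26 (0.075). Without 1 library it spanned -0.31 to -0.20, Aplp2 over App -0.029 to 0.087, and Aph1a over Ncstn -0.10 to 0.025.

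No paired analysis was made, because the labels do not say which CKp25 and CK libraries belong to the same litter or batch. Counts of 8 to 30 reads limit what can be said of Bace2.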
